A study of Mus musculus with 9 samples.

Results

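The genes described here are those whose reads remained readable in libraries of haematopoietic stem cells from old wild-type (WT) mice. A gene was taken when it was annotated as protein-coding and reached at least 100 CPM (a gene's counts scaled to a common total of counts in genes per library) in all 3 old WT libraries. Of 21819 protein-coding genes, 146 met this rule, which is 0.669% of them. They were set beside 1340 genes (6.14%) that reached 100 CPM in only 1 or 2 of the libraries. The members were chosen by their counts in these 3 libraries, so their levels there are given as a description, with no test and no p-value.

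The series holds 9 RNA-seq libraries in 3 groups of 3: young WT mice aged 2 months, old WT mice aged 22 to 24 months, and old mice of that same age range labelled B6N.129S6-Sphk2tm1Rlp/J (Sphk2 cKO). The labels name no strain for the WT mice and no treatment or Cre driver for any group. Each library was made from 1000 bone marrow cells sorted as Lin- Sca1+ c-Kit+ CD48- CD150+, with 13 cycles of amplification after poly(A) tailing and paired 150 bp reads. Libraries of a group are called technical replicates in the labels, which name no animal, so the spread given below is the spread between libraries.

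Haematopoietic stem cells are rare marrow cells that renew themselves and give rise to all blood lineages, and most of them are out of the cell cycle. Like other cells, they spend a large part of their messenger RNA on the ribosome: ribosomal protein genes encode the protein parts of both ribosomal subunits, and translation factors start, extend and end protein synthesis on it. The mitochondrial genome adds a small set of very abundant transcripts for subunits of the respiratory chain. Mouse chromosomes also carry long tandem repeats around their centromeres, and some predicted gene models lie in or beside such repeats.

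Counts in genes came to 5115003, 3145167 and 3448125 in old WT libraries 1, 2 and 3, so 100 CPM stood for 512, 315 and 345 reads. The exact Poisson 95% intervals of those counts ran from 91.6 to 109 CPM, from 89.4 to 112 CPM and from 89.8 to 111 CPM, and cover counting error only. Reads outside annotated genes made up 82.2%, 80.8% and 87.7% of the table's counts in these libraries, against 6.51% to 12.5% in young WT and 45% to 61.9% in old knockout (KO) libraries. Olfactory receptor genes, which are active in the nose, gave a background of 9.92, 5.41 and 10.4 reads per kb of exon. At that density a gene needed 51.6, 58.1 and 33.1 kb of exon to reach 100 CPM from background alone. Sphk2, the targeted gene of the KO group, stood at 3.91, 0.318 and 10.2 CPM in old WT, which is 0.485, 0.0444 and 0.809 times background, so it was not readable here.

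The most abundant member was a predicted gene, and 7 further members share sequence with it. Gm10800 (chr2:98666547-98667301, minus strand, GRCm38) took 81790, 111300 and 133800 CPM. It was followed among these predicted genes by Gm21738 (chr14:19415857-19418930, minus strand) and Gm10801 (chr2:98662237-98664083, plus strand). To show the repeated sequence that these members share, 234 bases from a coding exon of each are shown, as the annotated GENCODE M21 transcripts on GRCm38 give them, 5′ to 3′ on the gene's strand. Capitals mark the longest run that the 3 stretches have in common, of 31 bases.
Gm10800, exon 4, chr2:98666807-98667040, minus strand: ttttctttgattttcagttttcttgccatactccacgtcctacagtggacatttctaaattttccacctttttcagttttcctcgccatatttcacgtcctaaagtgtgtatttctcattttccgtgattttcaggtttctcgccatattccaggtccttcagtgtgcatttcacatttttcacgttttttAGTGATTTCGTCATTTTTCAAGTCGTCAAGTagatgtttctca
Gm21738, exon 3, chr14:19417133-19417366, minus strand: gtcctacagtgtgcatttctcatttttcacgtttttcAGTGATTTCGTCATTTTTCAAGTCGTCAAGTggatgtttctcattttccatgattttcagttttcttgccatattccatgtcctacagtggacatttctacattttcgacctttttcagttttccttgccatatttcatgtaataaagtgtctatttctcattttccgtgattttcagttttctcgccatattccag
Gm10801, exon 1, chr2:98662237-98662470, plus strand: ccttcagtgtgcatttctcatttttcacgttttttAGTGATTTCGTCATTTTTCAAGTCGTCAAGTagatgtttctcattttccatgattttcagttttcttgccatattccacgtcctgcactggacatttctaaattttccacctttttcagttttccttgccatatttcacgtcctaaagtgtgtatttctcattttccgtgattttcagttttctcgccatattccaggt

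Across the annotation, 12 protein-coding genes had a transcript with at least 20 positions where a run of 20 bases also occurs in Gm10800. Overlapping and repeated runs were counted at each position, and the grouping was made after the values were seen. Of these 12, 8 reached 100 CPM in all 3 old WT libraries: Gm10800, Gm21738, Gm10801, Gm10722, Gm10717, Gm10718, Gm11168 and Gm10719. The last 5 lie together on chromosome 9 between positions 3000922 and 3033289. The first annotated transcripts of the 8 genes held 1 run of 42 bases in common. When each transcript was laid over itself at every shift, the best match fell at 234 bases in 5 of the 8, where 62.4% to 65.2% of bases were the same. For the other 3 it fell at 225, 231 and 237 bases. The next best shift was 58 bases in all 8, and the mean over shifts was 31.0% to 32.1%. Tandem units leave such evenly spaced matches. The transcripts were not compared with a library of known repeats here.

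Levels of the 8 repeat-related genes moved together across libraries: all were highest in old WT library 3 and lowest in library 1. Gm21738 stood at 12100, 16050 and 19840 CPM, and Gm10801 at 6088, 7471 and 10140 CPM. Gm10722 had 1161, 1508 and 1849 CPM, while the other 4 ranged from 325 CPM (Gm10719 in library 1) to 1424 CPM (Gm10717 in library 3). Together they held 10.3%, 13.9% and 16.9% of the counts in genes. The ratio of Gm10800 to Gm21738 was nearly fixed, at 6.76, 6.93 and 6.75, and it lay between 6.32 and 6.93 over all 9 libraries of the series. In libraries the rule did not use, the summed share was 0.0643%, 0.225% and 0.190% in young WT and 3.68%, 4.31% and 2.61% in old KO. Gene models with runs in common can share reads, which was not measured, so the split of reads between these genes is uncertain. The 4 remaining relatives, Gm10720, Gm17535, Gm10715 and Gm10721, stayed between 5.87 and 56.8 CPM.

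By function the 146 genes fell into few groups, and ribosomal proteins were the largest of them. Ribosomal protein genes made up 70 of the 146 (47.9%), genes of the mitochondrial genome 7, translation factors 7 and the repeat-related predicted genes 8, which left 54 others. The translation factor group includes Tpt1 and Rack1, which do not themselves start, extend or end protein synthesis. Tpt1 had 11110, 17350 and 7306 CPM and Rack1 9728, 9697 and 3089 CPM, a large part of that group's counts. Ribosomal protein genes held 21.6%, 22.2% and 12.6% of the counts in genes of libraries 1, 2 and 3. The mitochondrial genes held 4.58%, 3.84% and 2.36%, the translation factors 3.38%, 3.60% and 1.98%, and the 54 others 4.17%, 3.75% and 3.33%. Library 3 thus had the smallest share in each of these 4 groups and the largest in the repeat-related genes. Reads outside genes were also most frequent in library 3, and their part in these shares was not tested.

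**Figure D1:**
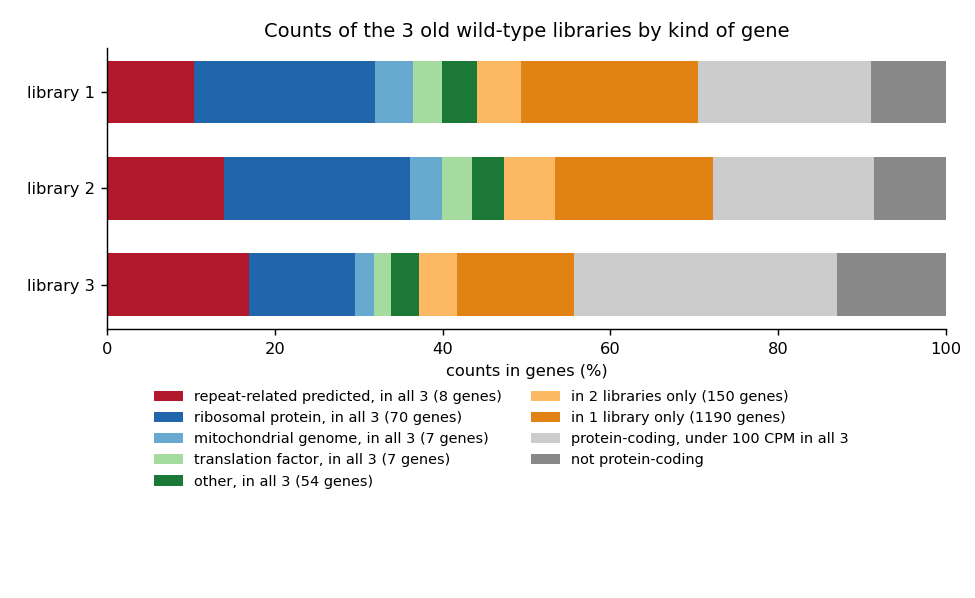
Percent of counts in genes (x axis) by kind of gene, as 1 stacked bar for each old WT library: the groups of the 146 genes with at least 100 CPM in all 3 libraries, then the genes passing in 2, in 1 and in none, then genes that are not protein-coding. The ribosomal protein share is 12.6% in library 3 against 21.6% and 22.2% in libraries 1 and 2, and the repeat-related share is 16.9% against 10.3% and 13.9%.

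Of the 81 cytosolic ribosomal proteins measured, 70 reached 100 CPM in all 3 libraries, 4 in 2, 3 in 1 and 4 in none. Of all protein-coding genes, 0.669% did so in all 3, 0.687% in 2 and 5.45% in 1. Rplp1, a protein of the ribosomal stalk, had 16690, 17710 and 7131 CPM, and per kb of exon it was the highest member outside the repeat-related genes, at 33450, 35500 and 14290 CPM per kb. Rps12, of the small subunit, had 8439, 10520 and 4685 CPM. Both were lowest in library 3, and so were 50 of the 70 in all. Rps2 was far more even, at 2612, 2968 and 2613 CPM. Rpl36, of the large subunit, had the narrowest range of all 146 genes, 797, 753 and 711 CPM (754 ± 42.8, SD, n = 3 libraries). Rpl7 had one of the widest ranges, with 309 CPM in library 1 against 3661 and 4118 CPM in the other two.

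The 11 ribosomal protein genes outside the set did not form 1 kind. Rpl11 had 1939 and 2068 CPM in libraries 1 and 2 but 74.2 CPM in library 3. Rps26 was missed in library 1, at 78.2 CPM against 750.0 and 460 CPM. Rpl15 passed only in library 2, with 1330 CPM beside 93.3 and 58.3 CPM. Rpl24, of the large subunit, was close to 0 in every old WT library, at 2.35, 3.5 and 0.58 CPM. Rpl24 was also low in young WT, at 19.6, 2.53 and 1.71 CPM. Ribosomal protein genes have many near-identical processed copies in the genome, so a low count can also be reads assigned elsewhere or to no gene, which was not tested.

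Translation factors and ribosome-associated proteins included several very abundant members. Tpt1, a growth-related protein bound to translation, had 11110, 17350 and 7306 CPM. Eef1a1, which brings charged tRNA to the ribosome, had 6378, 4256 and 6670 CPM with its highest library at 1.57 times its lowest. Rack1, a scaffold on the small subunit, was about alike in libraries 1 and 2, at 9728 and 9697 CPM, and lower in library 3, at 3089 CPM. Eif4b, a helper of the initiation helicase, was again even, at 468, 501 and 542 CPM. Of the 30 genes on the list, 7 were in the set (23.3%, against 0.669% of all protein-coding genes), 5 passed in 2 libraries, 4 in 1 and 14 in none. Eef2, the translocation factor, was among the 5, with 224, 1570 and 85.0 CPM.

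Of the 13 protein-coding genes of the mitochondrial genome, 7 passed in all 3 libraries and 5 in none, against 0.669% and 93.2% of all protein-coding genes. The cytochrome b gene mt-Cytb had 19360, 11890 and 9226 CPM, or 16920, 10400 and 8064 CPM per kb. The complex I genes mt-Nd4 and mt-Nd1 had 8398, 10430 and 3643 CPM and 4138, 5647 and 4213 CPM, and the oxidase gene mt-Co1 had 8461, 7483 and 2514 CPM. mt-Nd6, mt-Nd2 and mt-Nd5 completed the set with lower levels. mt-Nd3 missed it narrowly, at 131, 94.1 and 119 CPM. In contrast, mt-Co3 reached only 58.3, 44.2 and 62.1 CPM and mt-Co2 36.6, 28.3 and 22.0 CPM, although they lie on the same circular genome. Both were low in young WT too, at 24.3 to 31.4 CPM and 6.90 to 12.5 CPM. Whether reads of mt-Co3 and mt-Co2 were assigned elsewhere or to no gene was not tested.

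**Figure D2:**
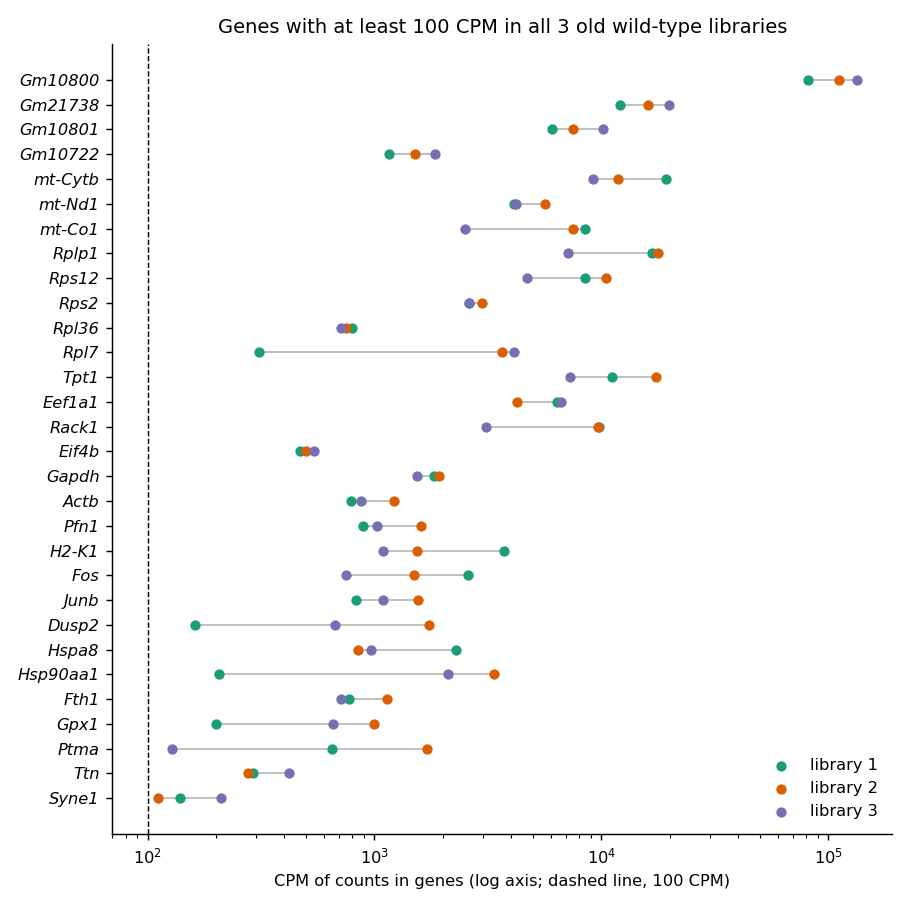
CPM (x axis, log scale) of named genes of the set, with 1 point per old WT library and a grey line from lowest to highest. Gm10800 and the other repeat-related genes shown are highest in library 3, while Rplp1, Rps12 and Rack1 are lowest there.

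The 54 other members included housekeeping genes, immediate early genes and chaperones, and many of the 54 were on none of the gene lists. Gapdh, a glycolytic enzyme, was among the most even of all, at 1825, 1932 and 1541 CPM (1766 ± 202, SD, n = 3 libraries). Actin cytoskeleton genes gave 4 members of 27 (14.8%, against 0.669% of all protein-coding genes). Actb, the main cytoplasmic actin, had 791, 1215 and 868 CPM. Pfn1, which binds actin monomers, had 894, 1607 and 1030 CPM, and Myl6 and Tmsb4x were lower. The heavy chain H2-K1, which presents peptides to T cells, was the only gene of the 14 on the MHC class I list in the set, at 3706, 1545 and 1094 CPM. Its partner B2m was missed in library 3 alone, with 1917, 3489 and 96.6 CPM. Of 75 nuclear genes of oxidative phosphorylation, 3 were in the set (Atp5b, Ndufb11 and Uqcrh), 3 passed in 2 libraries, 20 in 1 and 49 in none. For all protein-coding genes the shares in 3, 2 and 1 libraries were 0.669%, 0.687% and 5.45%.

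Immediate early genes, which are switched on within minutes of a stimulus, gave 6 members of 28 (21.4%, against 0.669% of all protein-coding genes). Fos, which pairs with Jun proteins to form AP-1, had 2585, 1497 and 747 CPM. Its partners Junb and Jund had 833, 1561 and 1095 CPM and 1144, 1292 and 590 CPM. The phosphatase gene Dusp1 had 545, 949 and 541 CPM, and the factor Klf2 324, 184 and 198 CPM. Dusp2 was uneven, at 161, 1733 and 669 CPM. Another 5 genes passed in 2 libraries, among them Egr1 with 455, 85.8 and 4224 CPM and Jun with 1398, 39.7 and 349 CPM. Of these 28 genes, 20 reached 100 CPM in all 3 young WT libraries and 21 in all 3 old KO libraries. For all protein-coding genes those shares were 3.14% and 2.08%.

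Chaperones gave 4 members of 21 (19%, against 0.669% of all protein-coding genes). Hspa8, the constitutive Hsp70, had 2295, 844 and 964 CPM, and the co-chaperone Dnajb1 had 517, 298 and 407 CPM. Hsp90ab1 stood at 394, 1030 and 1686 CPM. Hsp90aa1 had the widest range of the 146 genes, 207, 3349 and 2104 CPM, a 16.2-fold difference between its highest and lowest library. Iron storage and ferroptosis defence genes gave 3 members of 31 (9.68%, against the same 0.669%). Fth1, the ferritin heavy chain, had 775, 1136 and 716 CPM (875 ± 228, SD, n = 3 libraries). Sod1, a superoxide dismutase, had 912, 1446 and 516 CPM, and Gpx1, a glutathione peroxidase, had 200, 998 and 660 CPM. Gpx4, the peroxidase that reduces lipid hydroperoxides, was readable in library 1 only, at 1297 CPM against 20.4 and 20.9 CPM. In young WT, Gpx4 lay between 886 and 995 CPM in all 3 libraries.

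Genes that define the sorted cell were read for the most part in 1 library or in none. None of the 34 stem cell identity genes passed in all 3 libraries, which for a list of this size is near the share of all protein-coding genes, 0.669%. In 2 libraries 2 of them passed and in 1 library 10, beside 0.687% and 5.45% of all protein-coding genes. The other 22 passed in none, beside 93.2% of all protein-coding genes. Of the 34, 12 reached 100 CPM in all 3 young WT libraries and 8 in all 3 old KO libraries, beside 3.14% and 2.08% of all protein-coding genes. Kit, the receptor used in the sort, had 28.7, 31.5 and 74.2 CPM, which is 1.66, 2.05 and 2.76 times background. Slamf1, which encodes CD150, had 8.60, 14.6 and 306 CPM, and Ly6a, which encodes Sca1, had 4.50, 6.04 and 12.5 CPM. Cd48, on which cells were excluded, was also low, at 6.26, 4.13 and 11 CPM. Kit in young WT lay between 449 and 584 CPM, while Slamf1 and Ly6a were at most 12.5 and 26.8 CPM there.

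Several stem cell transcription factors passed in 1 old WT library only. Hlf had 28.1, 14.6 and 1372 CPM, Gata2 19.0, 592 and 34.8 CPM, and Lmo2 796, 68.0 and 12.2 CPM, so each of the 3 factors was high in a different library. The surface marker Cd34 was high in library 2, at 679 CPM against 10.8 and 25.8 CPM. Ifitm1 and the factor Lyl1 passed in 2 libraries, with 1636, 942 and 76.3 CPM and 692, 51.2 and 195 CPM. In young WT, Gata2 had 862 to 1081 CPM and Lmo2 603 to 786 CPM. Among 25 reported markers of old stem cells, only Fos was in the set (4%), 2 passed in 2 libraries and 5 in 1. The shares of all protein-coding genes in these classes were 0.669%, 0.687% and 5.45%. The sphingolipid enzymes, the pathway of Sphk2, gave 0 members of 31 and 2 genes in 1 library, among them S1pr4, a receptor of the pathway's lipid product. Both sphingolipid counts are near the shares of all protein-coding genes, 0.669% and 5.45%.

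Markers of other blood and marrow cells had no member in the set, which for lists of this size is near the 0.669% of all protein-coding genes. In such bulk libraries, fewer cells of a type and less RNA per cell cannot be told apart. Lists of erythroid (9 genes), neutrophil and monocyte (10), B and plasma cell (8), T and NK cell (6), megakaryocyte (6), stroma and endothelium (6) and mast cell (4) markers had 0 genes in all 3 or in 2 libraries. Single libraries did show some: S100a8, a neutrophil calcium-binding protein, had 541 CPM in library 3 against 8.99 and 7.63 CPM, Lyz2 had 293 CPM in library 1, Gp9 373 CPM in library 2, Itga2b 204 CPM in library 1 and Car2 692 CPM in library 2. The haemoglobin gene Hba-a1 had at most 1.16 CPM. Summed neutrophil and monocyte markers came to 354, 60.1 and 675 CPM, erythroid markers to 105, 707 and 51.9 CPM, and megakaryocyte markers to 242, 432 and 129 CPM. The highest sum of each list was mostly 1 gene: S100a8, Car2 and Gp9. In 1 library 2 of the 10, 1 of the 9 and 2 of the 6 passed, beside 5.45% of all protein-coding genes. In young WT, 1 marker of each of these lists passed in all 3 libraries, beside 3.14%. The part of such cells in other values was not tested.

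**Figure D3:**
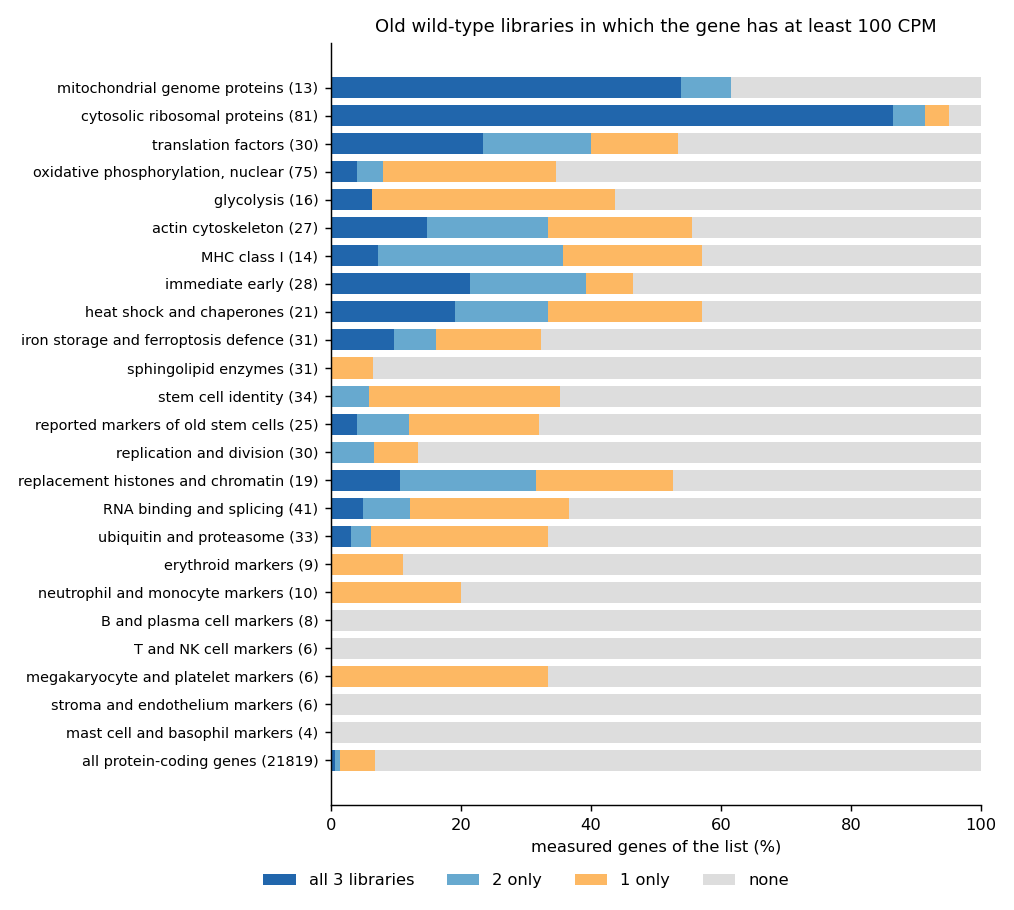
Percent of the measured genes of each list (x axis) that reached at least 100 CPM in all 3, in 2, in 1 or in none of the old WT libraries, as stacked bars with 1 bar per list. Cytosolic ribosomal proteins (70 of 81) and the mitochondrial genome (7 of 13) are the lists mostly in the set, and stem cell identity genes (0 of 34 in all 3) passed in 2 libraries (2 genes), in 1 (10) or in none (22).

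The set was small in number but held much of the protein-coding counts. Its 146 genes held 48.4%, 51.7% and 42.7% of the protein-coding counts (47.6% ± 4.56, SD, n = 3 libraries). The 150 genes (0.687%) that passed in 2 libraries held 5.83%, 6.63% and 5.14%, and the 1190 genes (5.45%) that passed in 1 held 23.2%, 20.6% and 16.1%. Of all counts in genes the set held 44.05%, 47.3% and 37.2%, and its repeat-related genes alone held 10.3%, 13.9% and 16.9%. Reads in no gene, 82.2%, 80.8% and 87.7% of all counts, are outside these shares. Each single library had more genes over 100 CPM than the set, 651, 752 and 525. Libraries 1 and 2 shared 212 of them, which is 32.6% of the first and 28.2% of the second. Libraries 1 and 3 shared 187 (28.7% and 35.6%), and libraries 2 and 3 shared 189 (25.1% and 36.0%).

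Spread between libraries was far wider in the genes passing in 1 or 2 libraries than in the set, which follows from the rule itself. The median gene of the set had 739, 1195 and 1875 CPM in its lowest, middle and highest library. For genes passing in 2 libraries these medians were 27.0, 198 and 548 CPM, and for genes passing in 1 they were 10.8, 21.3 and 267 CPM. The median ratio of highest to lowest was 2.39 in the set, 20.9 in the 2-library genes and 30.1 in the 1-library genes, and it was 2.74 in the genes that passed in none. A range under 3-fold was seen in 94 of the 146, 11 of the 150 and 40 of the 1190 genes. Across the 146 genes, Spearman's rho of CPM was 0.79, 0.72 and 0.73 for libraries 1 and 2, 1 and 3, and 2 and 3, given as a description, since genes are not independent replicates.

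**Figure D4:**
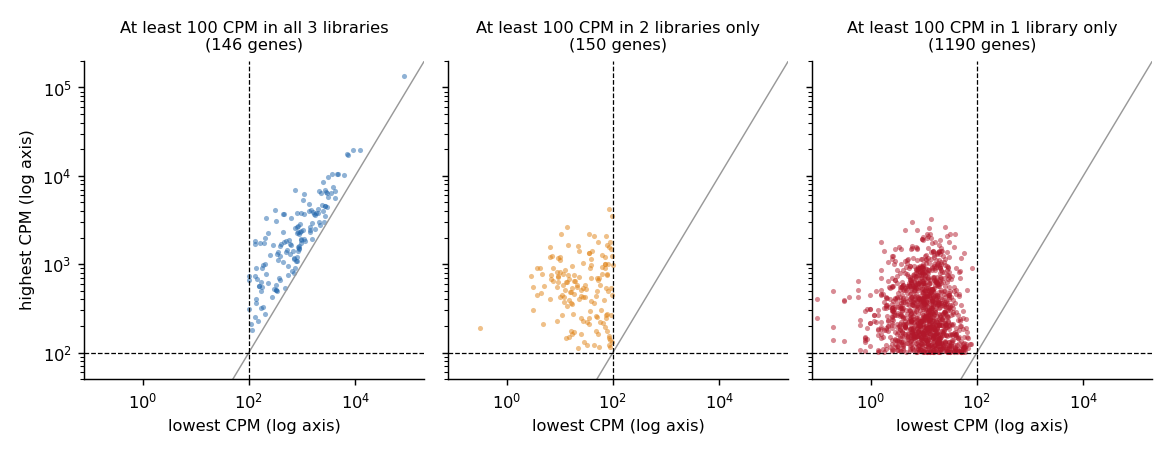
Lowest against highest CPM over the 3 old WT libraries for each gene, both on log10 axes, with 1 panel each for the genes passing in 3, 2 and 1 libraries; genes with next to no counts in their lowest library are drawn at the axis edge. Genes of the set lie near the diagonal (median ratio 2.39), and the 1-library genes spread far from it (median ratio 30.1).

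Genes seen in only 1 library were often high there and near background in the other two. Of the 1190, 1079 were under 5 times background in both other libraries, 1014 (85.2%) were under 50 CPM in both, and 547 (46.0%) under 20 CPM in both. In their passing library 313 exceeded 500 CPM and 88 exceeded 1000 CPM. Dazap2, a small proline-rich protein, led them with 3234 CPM in library 1 against 13.7 and 14.2 CPM. Preb had 2970 CPM in library 3 against 21.7 and 6.04 CPM, and H2-T22, an MHC class I gene, had 2408 CPM in library 2 against 4.50 and 18.3 CPM. Hprt, an enzyme of purine salvage, had 2205 CPM in library 1 against 13.4 and 15.1 CPM, and Pkm, a pyruvate kinase, had 2170 CPM there against 39.4 and 95.4 CPM. Library 2 contributed 497 such genes, library 1 398 and library 3 295.

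Among the 150 genes passing in 2 libraries, 66 were missed in library 3, 43 in library 1 and 41 in library 2. Where they were missed, their median level was 33.8, 21.9 and 25.1 CPM respectively. Laptm5, a lysosomal membrane protein of blood cells, had 2071, 573 and 44.4 CPM, and Ubb, a polyubiquitin gene, had 1781, 1747 and 89.3 CPM. Gyg, which primes glycogen synthesis, was missed in library 1, at 13.5 CPM against 2645 and 123 CPM. Ifitm3, an interferon-induced membrane protein, was also missed in library 1, with 52.0, 1779 and 1164 CPM.

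At the boundary the set was not sharp. The members with the lowest values were Chchd2, with 100.5, 238 and 733 CPM, Rhob, with 658, 223 and 101 CPM, and Sp110, with 102.4, 111 and 308 CPM. Just outside were Ppia, with 982, 98.6 and 147 CPM, Rpl23a, with 229, 452 and 97.7 CPM, and Zfp36, with 96.6, 1223 and 496 CPM. By counting error alone, 3 members had a lower 95% limit under 100 CPM in some library, and 8 of the 2-library genes had upper limits that reached it.

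A level of 100 CPM did not always lie above background, so the name "reliably detected" did not hold for every member. In all 3 libraries, 141 of the 146 genes were at least 5 times the olfactory receptor density per kb, against 42 of the 150 and 15 of the 1190. The 1-library and 2-library genes are under 100 CPM in some library by the rule, so this contrast follows in part from it. The 141 include the 8 repeat-related genes, at 86.7 times background or more, for which a background of their own was not measured. Among the 5 members of the set under 5 times background were D10Wsu102e, Ttn, Syne1 and Tsc22d1. D10Wsu102e, with 123179 bp of merged exon, had 239, 169 and 323 CPM, which is only 1.00, 0.796 and 0.868 times background. Ttn, which encodes the giant muscle protein titin, has 116825 bp and had 291, 277 and 420 CPM, or 1.28, 1.38 and 1.19 times background. Syne1, a large protein of the nuclear envelope, was at 1.77, 1.60 and 1.73 times background. Tsc22d1 was under 5 times in library 3 alone, at 4.89 against 42.1 and 37.7 times.

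**Figure D5:**
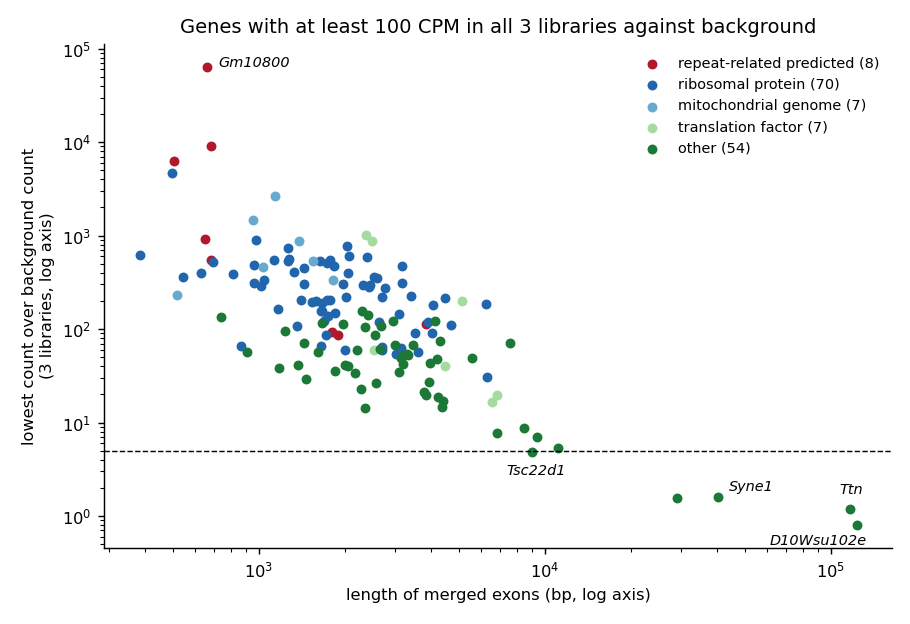
Level of each gene of the set relative to the olfactory receptor density per kb of exon (y axis, log10; lowest of the 3 old WT libraries) against its merged exon length in bp (x axis, log10). D10Wsu102e, Ttn and Syne1, with long merged exons, are among the lowest, and 141 of the 146 genes lie at 5 times background or more.

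Members were otherwise short. The median merged exon length was 2239 bp (quartiles 1442 and 3384) in the set, 3481 bp in the 2-library genes, 4450 bp in the 1-library genes and 3479 bp in genes that passed in none. The median number of merged exons was 4, 7, 10 and 7. CPM is not divided by length, so the rule itself favours long genes at equal density, and ribosomal protein genes of the set had a median of 1776 bp. Within the 1-library genes, those of library 3, where background was densest per count, were the longest, with a median of 5878 bp against 4096 and 4343 bp for libraries 1 and 2.

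Libraries that the rule did not use gave an independent description of the same genes. Of the 146 members, 128 (87.7%, Wilson 95% interval 81.3 to 92.1) reached 100 CPM in all 3 young WT libraries, against 3.14% of all protein-coding genes. The share was 51.3% for the 2-library genes (77 of 150) and 15.5% for the 1-library genes (185 of 1190). In old KO libraries it was 89.7% for the members (131 of 146, interval 83.7 to 93.7), 40.7% and 8.99%, against 2.08% of all protein-coding genes. The intervals treat genes as independent, which genes of 1 ribosome are not. All 70 ribosomal protein members, the 7 mitochondrial genes and the 7 translation factors passed in all 3 young WT and all 3 old KO libraries. The median coefficient of variation of the members was 42.2% in old WT, 20.1% in young WT and 22.8% in old KO libraries. For the 1-library genes it was 149%, 73.1% and 79.1%. The old WT values come from the libraries that the rule used, so the 149% follows from the rule. Counts in genes were also higher elsewhere, at 28088637 to 74021822 in young WT and 11284847 to 17544945 in old KO libraries. Their part in these values was not tested.

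Among the members, 18 did not pass in all 3 young WT libraries. All repeat-related genes except Gm10800 were among them (7 of 8), and so were the background-level genes D10Wsu102e, Ttn and Syne1. Sfi1, a protein of the centriole, had 1315, 931 and 2319 CPM in old WT, 66.8, 118 and 90.9 CPM in young WT and 318 to 373 CPM in old KO. Gadd45g, a growth arrest gene, had 198, 362 and 135 CPM in old WT and 21.4 to 69.2 CPM in young WT. Napsa, an aspartic peptidase, had 1664, 281 and 833 CPM and passed in 1 young WT library. Ppp6r3, Bola2, Sp110 and Mroh2a were also among the 18. Only 4 members passed in none of the 6 other libraries, among them Mroh2a, Syne1 and Ttn. These values are set side by side and no difference between groups was tested.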

How the data were processed

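The values are raw counts of reads per gene, deposited by the authors in a single table for 9 libraries. Per the submitters' processing notes the tools were Trim Galore 0.6.2, STAR 2.6.1d, HTSeq 0.10.0 and edgeR 3.24.3 with the mm10 genome. Neither the annotation nor the strandedness used in counting is given in the sources used here, so reads of a gene and its antisense partner cannot be told apart. The table holds 52550 gene rows and 5 rows that name no gene, which stayed out of the totals: reads in no feature were 80.8% to 87.7% and ambiguous reads 0.619% to 1.03% of old WT counts.

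CPM was computed from the gene rows with pandas 2.3.3, and high levels are rounded to 4 significant digits. Biotypes, coordinates and merged exon lengths came from GENCODE M21, which matched 52403 identifiers; the 147 unmatched ones never reached 100 CPM. Background is the reads per kb of exon over olfactory receptor genes (1122 of 1134, since the densest 1% was left out). Scaling alternatives used edgeR 4.0.16 and DESeq2 1.42.0 factors. Some genes are counted but not reported by name here. Scripts were tested on simulated data. Genes named are those of the lists, the extremes of each class and the threshold's neighbours. The members, gene lists and alternatives were chosen with earlier results of these data known. No test was run, because the same libraries chose the genes.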

Additional observations from a re-analysis of the deposited data

Results flagged for a closer look

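Genes that are not protein-coding stood outside the set, and 12 of them also reached 100 CPM in all 3 old WT libraries. They are given here because their counts lie in rows that the description above does not use. The short gene model Gm23935 had 4372, 4077 and 5992 CPM, the mitochondrial ribosomal RNAs mt-Rnr2 and mt-Rnr1 had 3799, 4062 and 3215 CPM and 734, 1195 and 586 CPM, and Gm26870, which lies on chromosome 9 over the repeat-related predicted genes, had 2067, 2880 and 3525 CPM. Gm26917 had 618, 1097 and 614 CPM and its neighbour CT010467.1, annotated as ribosomal RNA, 172, 547 and 768 CPM. The pseudogene Tpt1-ps3 had 560.1, 260 and 246 CPM and Gm10076 312, 416 and 151 CPM. Kcnq1ot1, an antisense RNA of an imprinted region with 93092 bp of exon, had 222, 164 and 240.1 CPM, and Gm37985, with 74456 bp, had 118, 114 and 191 CPM. Both are longer than the 51.6, 58.1 and 33.1 kb of exon at which background alone reached 100 CPM, so neither can be taken as above background. Pisd-ps1 and Gm11400, both on chromosome 11 beside or within Sfi1, had 130, 108 and 167 CPM and 105, 120 and 169 CPM.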

How the results depend on the processing

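No paired analysis was possible because the description covers 1 group and comes from no test. The number of genes in all 3 libraries, 146, lay between 119 and 160 under scaling by TMM or DESeq2 factors (148 each, with 141 genes shared with the 146), background subtraction, 200 CPM, 500 counts, totals without mitochondrial or repeat-related genes (the last added after the values were seen), a background minimum of 5 times (141 genes, also added then) and the inclusion of all biotypes (158). It was 72 when totals took all rows and 255 at 50 CPM. Under those same settings the genes in 1 or 2 libraries numbered 349 and 2318. With all rows in the totals, the set's share of protein-coding counts was 40.7%, list members in the set numbered 65 against 110, and 100% of the set passed in old KO. At 50 CPM, 63.1% passed in young WT and 63.5% in old KO, and at 200 CPM and 500 counts 96.6% and 94.7% passed in old KO. Leaving out 1 library in turn gave 187 to 212 genes in both others, 802 to 979 genes in 1 (802 without library 2), a share of 47.4% to 54.0% (54.0% without library 3), 77.5% to 79.9% passing in young WT and 75% to 78.8% in old KO. The counts at 100 CPM, 512, 315 and 345, limit what can be read below that level. Whether the libraries come from separate animals is not stated, and the cause of these shifts was not tested.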
